A study of Bos taurus with 4 samples.

Results

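Genes of the negative feedback on the MAP kinase pathway and immediate early genes were examined in inner cell masses (ICMs) of bovine embryos. Members were chosen by gene symbol. They were all genes on the array whose symbol begins with *DUSP* and a digit, *SPRY*, *SPRED*, *EGR* and a digit, *FOS*, *ETV*, *IER*, *NR4A*, *MAFF*, *MAFG* or *MAFK*, and 15 genes given by their full symbol, of which 10 had a probe with that symbol. This gave 55 genes of 12,552 genes with a symbol on the array, measured by 109 probes. Of the 55 genes, 38 had more than 1 probe. The other 5 genes of the rule, among them *SRF*, *JUND* and *NF1*, are not analysed here. The prefix also took in genes that belong by name only, namely *SPRYD3*, *SPRYD4* and *SPRYD7*, which share a protein domain name and are not Sproutys, and *IER3IP1*, named for a protein interaction. *DUSP27* carries the current symbol *STYXL2*.

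Growth factors such as FGF act through RAS, RAF and MEK on the kinase ERK, which phosphorylates transcription factors and thereby switches on immediate early genes within minutes and without new protein synthesis. ERK activity also induces its own brakes, the dual-specificity phosphatases that remove phosphates from MAP kinases and the Sprouty and Spred proteins that act upstream at RAS and RAF. In the early embryo FGF and ERK are known for driving ICM cells towards hypoblast, and inhibitors of MEK are a common part of media for naïve stem cells.

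The study cultured in vitro produced bovine embryos in SOF, a synthetic oviduct fluid. After 4 days of this culture it moved them to NHSM, a naïve human stem cell medium, or to fresh SOF. On day 9 after fertilization the ICMs were cut from the trophectoderm with needles and pooled, 11 to 24 per pool according to the labels. NHSM embryos were held in KO-DMEM with serum replacement, insulin, glutamine, non-essential amino acids, beta-mercaptoethanol, antibiotics, LIF, bFGF, TGFβ1 and the inhibitors PD0325901 (MEK), CHIR99021 (GSK3), Go6983 (PKC), SP600125 (JNK) and SB203580 (p38), whereas SOF embryos received none of these inhibitors. The oocytes came from slaughterhouse cows of mixed breeds. Because the base media also differ, the part of single components, the MEK inhibitor or the added bFGF included, cannot be told apart.

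Each of 4 two-colour arrays carried 1 NHSM pool and 1 SOF pool, with the NHSM pool in the dye Cy3 on arrays 1 and 3 and in Cy5 on arrays 2 and 4. The log2 ratio of NHSM over SOF was taken within each array and fitted in limma with a dye term for each probe. A probe passed at an adjusted p (Benjamini-Hochberg over 43,653 gene probes) under 0.05, and was called if it was also at least 1.5-fold apart. Each gene is given by its brightest probe unless stated. Levels of single pools are normalized log2 intensities, which cannot be compared between probes. They were not corrected for the dye effect of the probe. Differences between pools of 1 probe, SDs, overlaps and sums of these levels therefore also hold that effect. Of the gene probes 15,701 carry no symbol and were assigned to no gene, so a gene is described here only by the probes that carry its symbol. A floor, the 95th percentile of control spots in each channel, was exceeded by 44.0% to 72.1% of the gene probes in NHSM pools and by 48.8% to 67.3% in SOF pools. Over the whole array 764 probes were called, 370 higher and 394 lower in NHSM, and with median centring in place of loess the split was 563 higher and 300 lower.

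The ICMs were checked against markers of the cell types they could hold. Of 7 listed epiblast markers only 3, *NANOG*, *SOX2* and *PRDM14*, had a probe with their symbol, so the others, *POU5F1* among them, are not covered. These 3 lay above the floor in every pool and were lower in NHSM by 0.31 to 0.32 on the log2 scale. Their summed log2 level was 12.02 to 12.37 in NHSM pools and 12.43 to 12.59 in SOF pools. Of 6 measured trophectoderm markers (9 listed) 2 were lower (*GATA2* and *TFAP2A*) and 4 did not pass. The summed level was 15.61 to 16.07 in NHSM pools and 15.88 to 16.27 in SOF pools. Of 6 measured hypoblast markers (8 listed) 1 was lower (*GATA6*), with a summed level of 11.5 to 11.66 in NHSM pools and 11.75 to 11.84 in SOF pools. Of 4 measured cumulus and granulosa markers (5 listed) 1 was higher by the brightest probe (*FSHR*). The brightest *CYP19A1* probe had a log2 fold change of -0.07. Its probe BTAA006711 was higher in NHSM (0.43, adjusted p = 0.0416 from limma). The summed level of the 4 markers by their brightest probes was 13.98 to 14.94 in NHSM pools and 14.4 to 15.55 in SOF pools. Each sum is weighted towards its brightest probes and does not measure cell numbers. In the last sum *AMH* had a mean log2 intensity of 14.73 and a dye effect of 0.71, against intensities of 7.18 to 7.59 for the other markers. In the trophectoderm sum the brightest probe was that of *TFAP2C* (15.33, dye effect -0.67). These marker shifts stood beside all results below, and their part in them was not tested. In pooled tissue, fewer cells of a type and less RNA per cell cannot be told apart.

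Among the 55 genes 9 were lower in NHSM by the brightest probe, 0 were higher and 46 did not pass in limma. The 9 lower genes were *MAFF*, *DUSP4*, *SPRY2*, *FOS*, *SPRED1*, *IER5*, *MYC*, *NR4A1* and *MAFG*. They were 16.4% of the members, against a background of 5.94% of all named genes that were lower, while 5.95% of all named genes were higher. By at least 1.5-fold 5 of the members were lower (9.09%, against 1.35% of all named genes). Members were chosen with earlier results of these data known, so these shares are descriptive and do not test the members as a set. The counts of lower members also depended on the processing. There were 5 lower members without replicate 4, with median centring or without the dye term and 3 with separate channels. The shares of all named genes in these settings are not given here. When the probes of a gene were averaged, 0 members were lower by at least 1.5-fold, but only 50 of all named genes were. At an unadjusted p under 0.05 there were 11 lower members (20.0%, against 13.0% of all named genes) and 4 higher ones (7.27%, against 12.4%). When a gene was counted by any of its probes, a way of counting chosen after seeing the data, *DUSP6* and *EGR1* joined them. Then 11 of 55 members were lower (20.0%, against 7.24% of all named genes), 7 of them by at least 1.5-fold (12.7%, against 1.55%), and 0 were higher. In 6 members every NHSM pool lay below every SOF pool by the brightest probe (10.9%, against 5.44% of all named genes). In 2 members, *JUNB* and *DUSP5*, every NHSM pool lay above every SOF pool, though *DUSP5* was at the floor in all pools. The share of all named genes in that direction was not counted.

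Most of the 55 genes had log2 fold changes close to 0. The median log2 fold change of the 55 genes was -0.05, against -0.02 for all named genes. Within 0.1 of 0 lay 31 of the 55, genes at or near the floor included, and the same share over all named genes was not counted. On the single arrays 35, 30, 37 and 28 of the 55 genes had a negative ratio on arrays 1 to 4 (63.6%, 54.5%, 67.3% and 50.9%), against 52.3%, 47.6%, 54.4% and 48.6% of all named genes. By the brightest probe 33 genes lay above the floor in all 4 pools of a medium. The 6 genes *DUSP5*, *ELK1*, *ELK4*, *NR4A3*, *SPRY4* and *VGF* did not exceed the floor in any pool, so that no fold change is given for them.

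**Figure D1:**
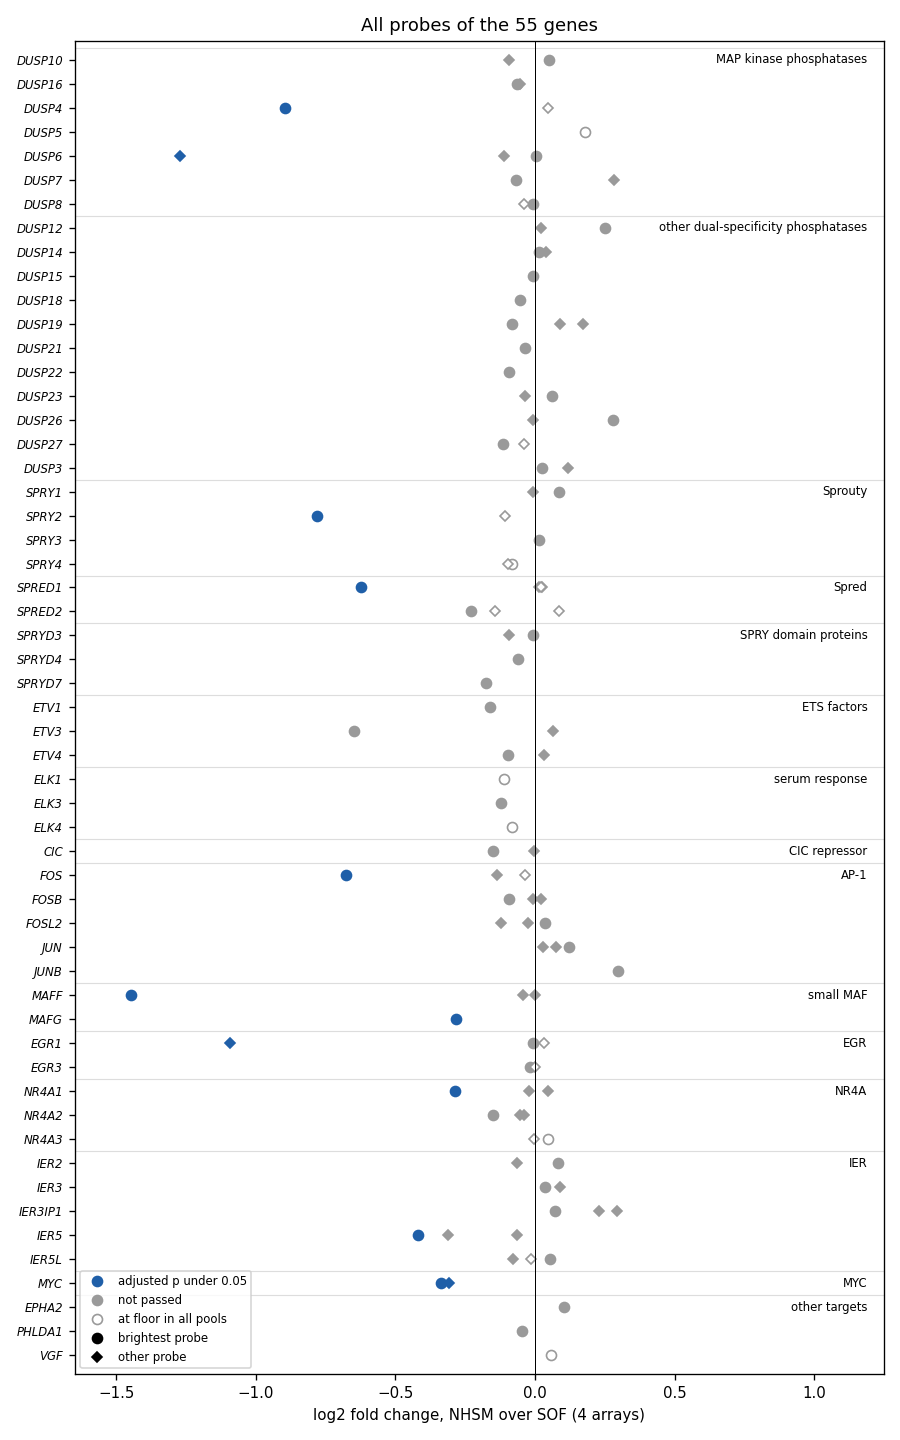
Log2 fold change of NHSM over SOF for all 109 probes of the 55 genes, grouped by role, with circles for the brightest probe of a gene, diamonds for its other probes, blue for an adjusted p under 0.05 and open symbols for probes at the floor in all pools. All 12 probes that passed lie left of 0, and most other probes lie close to 0.

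**Figure D2:**
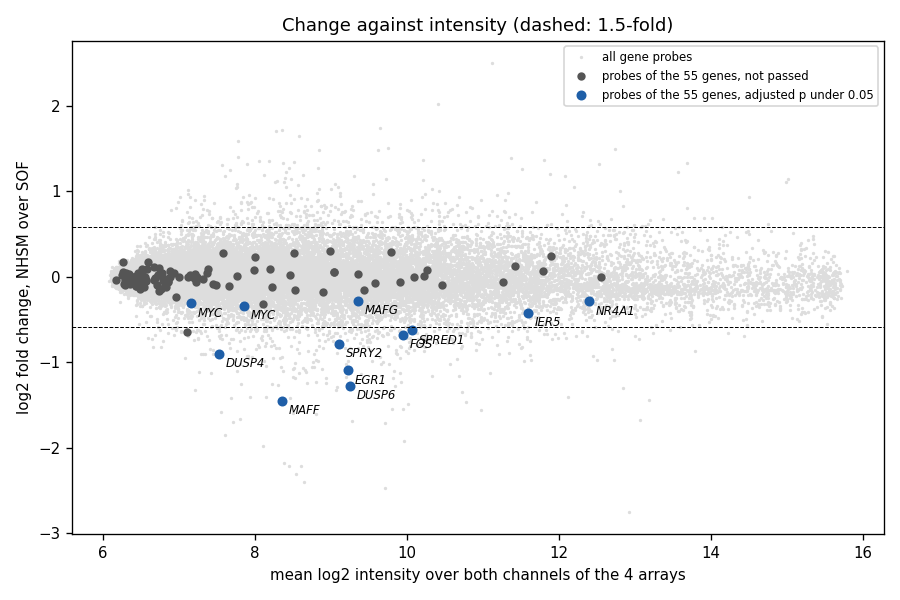
Log2 fold change of NHSM over SOF against the mean log2 intensity of the probe, with all 43,653 gene probes in light grey, probes of the 55 genes that did not pass in dark grey and those with an adjusted p under 0.05 in blue. Dashed lines mark 1.5-fold, and 7 probes of the 55 genes that passed lie below the lower line.

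Among the feedback inhibitors, genes from 3 families were lower in NHSM by more than 1.5-fold, and in each family other members did not pass. *DUSP4*, a nuclear phosphatase of ERK and JNK on bovine chromosome 27, had levels of 7.47, 7.52, 6.77 and 6.58 in NHSM pools 1 to 4, against 8.23, 8.04, 8.12 and 7.54 in SOF pools 1 to 4. The lowest SOF pool was barely above the highest NHSM pool, but within each array the NHSM pool was the lower one, with the widest gap on array 3. The difference by this probe was 1.86-fold (log2 fold change -0.90, standard error 0.12, adjusted p = 0.00512 from limma, n = 4 arrays). The probe was above the floor in 3 of 4 NHSM pools and in all 4 SOF pools, so part of the NHSM level is close to what the array can measure. When the 2 channels of an array were fitted as separate samples, the difference no longer passed (adjusted p = 0.132).

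*DUSP6*, the cytoplasmic phosphatase of ERK on chromosome 5, gave different values by probe. Its probe BTAA017610 had levels of 8.37, 8.94, 8.65 and 8.48 in NHSM pools, against 9.71, 10.05, 9.94 and 9.82 in SOF pools. All NHSM pools were below all SOF pools, and the ratios on the 4 arrays were close to each other (-1.35, -1.11, -1.29 and -1.34). The difference was 2.42-fold (log2 fold change -1.27, standard error 0.07, adjusted p = 2.67e-04), which put this probe at rank 37 from the lowest of the 43,653 probes. The brightest *DUSP6* probe, BTAA031760, had a log2 fold change of 0.00 (95% confidence interval -0.15 to 0.16, adjusted p = 0.996), so this interval does not reach a change of the size seen with BTAA017610. Its ratios were -0.25 and -0.33 on the arrays with NHSM in Cy3 and 0.35 and 0.23 on those with NHSM in Cy5, and the fit took this up as a dye effect of 0.29. The other *DUSP6* probe, BTAA038779, was above the floor in all pools and had a value of -0.11 (interval -0.28 to 0.05).

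The other 5 MAP kinase phosphatases with a probe of their symbol, *DUSP5*, *DUSP7*, *DUSP8*, *DUSP10* and *DUSP16*, did not pass. *DUSP16*, which acts on JNK and p38, had ratios of -0.67 and -1.21 with NHSM in Cy3 but 0.88 and 0.74 with NHSM in Cy5. These ratios followed the dye and not the medium, with a dye effect of 0.88 and a log2 fold change of -0.07. *DUSP7*, an ERK phosphatase related to *DUSP6*, had -0.07 (interval -0.22 to 0.08) by its brightest probe. Its other probe, BTAA004594, was above the floor in all pools and had the opposite sign (0.28, interval 0.08 to 0.49, adjusted p = 0.107). The 11 remaining dual-specificity phosphatases, many of which do not act on MAP kinases, held 0 genes that passed and ranged between -0.11 and 0.28. The most positive values were those of *DUSP26* (0.28, adjusted p = 0.0997) and *DUSP12* (0.25, adjusted p = 0.068). By these probes both genes passed as higher in NHSM when dim probes were removed before the fit or when the authors' own ratios were used. The other probe of *DUSP26* had -0.01 and that of *DUSP12* 0.02.

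Sproutys and Spreds are induced by growth factors and dampen the signal between the receptor and RAF. *SPRY2*, on chromosome 12, had levels of 8.70, 8.52, 8.83 and 8.84 in NHSM pools, against 9.59, 9.49, 9.35 and 9.58 in SOF pools. The ranges were well apart and narrow in both media. The gene was 1.72-fold lower in NHSM (-0.78 ± 0.09 on the log2 scale, estimate and standard error, adjusted p = 0.00287), rank 72 from the lowest of the named genes, and it passed under all 13 alternatives tried. *SPRY1* had 0.09 and *SPRY3* 0.02, but neither was above the floor in more than 2 pools of a medium, and *SPRY4* was at the floor throughout. A difference in these 3 Sproutys was thus not detectable with the probes that carry their symbols.

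*SPRED1*, an inhibitor of RAS and RAF signalling on chromosome 10, had levels of 9.63, 10.11, 9.60 and 9.67 in NHSM pools, against 10.50, 10.42, 10.27 and 10.32 in SOF pools. NHSM pool 2 was the high one of its group and still lay below all SOF pools. The difference was 1.54-fold (log2 fold change -0.62, standard error 0.08, adjusted p = 0.00545). The other 3 *SPRED1* probes had log2 fold changes between 0.01 and 0.02, of which BTAA022811 was above the floor in all pools (0.01, interval -0.15 to 0.17). With the mean of all *SPRED1* probes the value was -0.14 (adjusted p = 0.224). *SPRED1* still passed but was less than 1.5-fold lower with median centring (-0.54), without replicate 1 (-0.57) and without replicate 4 (-0.54). *SPRED2* had -0.23 (standard error 0.09, adjusted p = 0.23), with ratios close to 0 on arrays 1 and 2 and of -0.48 and -0.33 on arrays 3 and 4. The 3 *SPRYD* genes did not pass and lay between -0.18 and -0.01.

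**Figure D3:**
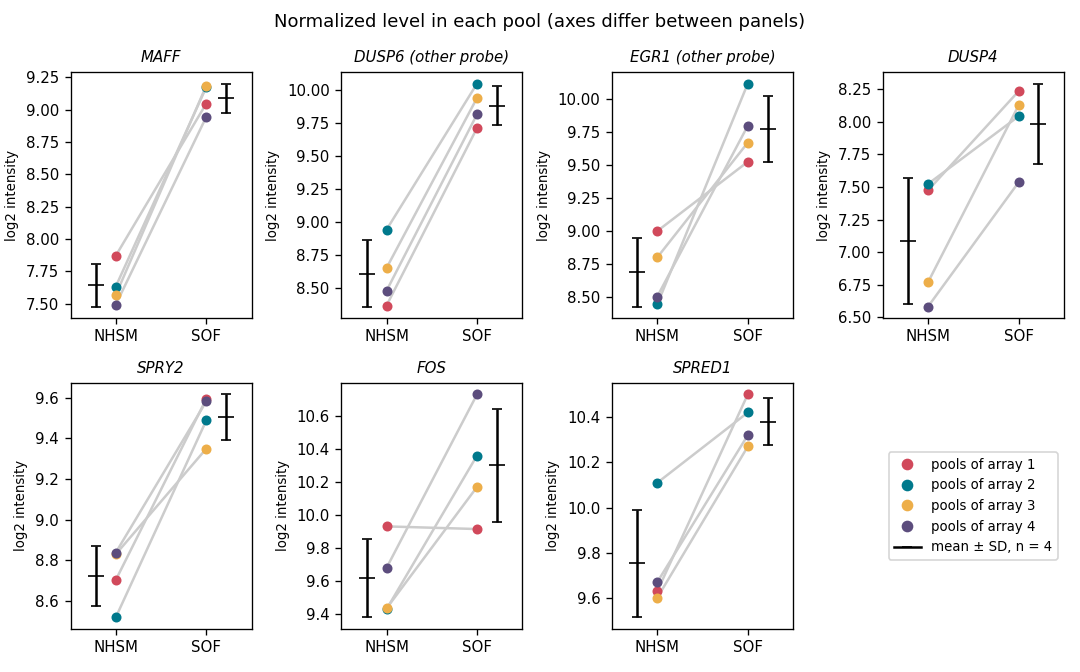
Normalized log2 intensity of the 7 probes that were lower by at least 1.5-fold, with NHSM pools on the left and SOF pools on the right of each panel, lines joining the pools of 1 array, and bars for the mean and SD of 4 pools. Vertical axes differ between panels and do not start at 0. NHSM pools lie below all SOF pools in every panel except that of *FOS*, where array 1 shows no gap.

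Immediate early transcription factors are the first genes that ERK switches on, and *FOS*, its classical target, forms the dimer AP-1 with a JUN protein. *FOS*, on chromosome 10, had levels of 9.93, 9.43, 9.44 and 9.68 in NHSM pools, against 9.92, 10.36, 10.17 and 10.73 in SOF pools. The pools overlapped, because on array 1 both media had nearly the same level before the dye effect was removed. On the other 3 arrays the NHSM pool was clearly the lower one. The ratios were 0.02 and -0.74 on the arrays with NHSM in Cy3 and -0.93 and -1.05 on those with NHSM in Cy5. The fit took up a dye effect of -0.32. The difference was 1.60-fold (log2 fold change -0.68, standard error 0.12, adjusted p = 0.0150). It no longer passed when the dye term was dropped (adjusted p = 0.0851), with separate channels (0.0720) or with the mean of all probes of the gene (log2 fold change -0.28, adjusted p = 0.0667). Without replicate 3 it passed at less than 1.5-fold (-0.49, adjusted p = 0.00379).

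The other 4 AP-1 genes with a probe of their symbol did not pass, all with probes above the floor. *FOSB* had a log2 fold change of -0.09 (interval -0.26 to 0.08), *FOSL2* 0.04 (-0.12 to 0.19) and *JUN*, whose product is the namesake substrate of the JNK kinases, 0.12 (-0.04 to 0.29). *JUNB*, which can oppose JUN, had positive ratios on all 4 arrays (0.71, 0.25, 0.12 and 0.12) and pools that did not overlap, with a log2 fold change of 0.30 (adjusted p = 0.144). *JUNB* was higher in NHSM with median centring and without replicate 3. So within AP-1 the lower level was seen in *FOS* alone among the genes measured here, although the differences between the members were not tested.

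The 2 small MAF genes with a probe of their symbol, *MAFF* and *MAFG*, were both lower in NHSM, whereas *MAFK* had no such probe. Small MAF proteins lack an activation domain and bind DNA as partners of CNC factors such as NRF2, and *MAFF* is induced by serum and stress. *MAFF*, on chromosome 5, had levels of 7.87, 7.63, 7.57 and 7.49 in NHSM pools, against 9.05, 9.18, 9.19 and 8.95 in SOF pools. The gap between the media was several times the spread within either of them, with means of 7.64 ± 0.16 in NHSM and 9.09 ± 0.11 in SOF (SD, n = 4 pools each). This was the largest difference of the 55 genes by the brightest probe, 2.73-fold lower (-1.45 ± 0.09 on the log2 scale, adjusted p = 3.46e-04), at rank 6 from the lowest of the 12,552 genes. It passed under all 13 alternatives. The other *MAFF* probes, BTAA027547 and BTAA041470, had -0.04 and 0.00 and were above the floor in at most 2 pools of a medium. *MAFG*, on chromosome 19, was 1.22-fold lower (-0.28 ± 0.06 on the log2 scale, adjusted p = 0.0389). Its ratios were -0.03 and 0.03 on the arrays with NHSM in Cy3 and -0.54 and -0.59 on those with NHSM in Cy5. It no longer passed when any 1 replicate was left out (adjusted p between 0.0524 and 0.225).

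*EGR1*, a zinc finger factor and an immediate target of ERK on chromosome 7, differed between its probes like *DUSP6*. Its probe BTAA007498 had levels of 9.00, 8.44, 8.80 and 8.50 in NHSM pools, against 9.53, 10.12, 9.67 and 9.80 in SOF pools. No NHSM pool reached the SOF pools. The difference was 2.13-fold (log2 fold change -1.09, standard error 0.09, adjusted p = 0.00116), with ratios of -0.53 and -0.87 on the arrays with NHSM in Cy3 and of -1.67 and -1.30 on those with NHSM in Cy5. The brightest *EGR1* probe, BTAA016233, had -0.01 (interval -0.16 to 0.15, adjusted p = 0.988), and the remaining probe was at the floor in all pools. *EGR3*, a related factor, had -0.02 (interval -0.19 to 0.15) near the floor.

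Smaller differences were seen in *NR4A1*, *IER5* and *MYC*. *NR4A1*, an orphan nuclear receptor on chromosome 5 that growth factors induce rapidly, was 1.22-fold lower (-0.29 ± 0.07 on the log2 scale, adjusted p = 0.0496), with ranges of 12.17 to 12.35 in NHSM pools and 12.35 to 12.63 in SOF pools that touched. With replicate 1, 2 or 4 left out it no longer passed, at an adjusted p of 0.0963, 0.305 and 0.125. Of its relatives, *NR4A2* had -0.15 (interval -0.31 to 0.01) and *NR4A3* was at the floor. *IER5*, an immediate early gene on chromosome 16, was 1.34-fold lower (-0.42 ± 0.09 on the log2 scale, adjusted p = 0.0291), with 11.09 to 11.62 in NHSM pools and 11.62 to 11.90 in SOF pools. It did not pass without replicate 4 (adjusted p = 0.162). Its probe BTAA035675, above the floor in all pools, had a value of -0.31 (interval -0.65 to 0.02). The other genes of this prefix, *IER2*, *IER3*, *IER3IP1* and *IER5L*, did not pass and lay between 0.03 and 0.08 by their brightest probes. The other *IER3IP1* probes, BTAA023264 and BTAA031915, were above the floor in all pools and had 0.29 and 0.23 (adjusted p = 0.0651 and 0.0998).

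*MYC*, on chromosome 14, encodes a growth-promoting factor that ERK both induces and stabilizes. Its levels were 7.61, 7.78, 7.72 and 7.65 in NHSM pools, against 8.00, 8.09, 7.98 and 8.02 in SOF pools. These were the tightest pools among the genes that passed, with an SD of 0.07 in NHSM and 0.05 in SOF, and they did not overlap. The difference was 1.26-fold (log2 fold change -0.34, standard error 0.07, adjusted p = 0.0231). The other *MYC* probe, BTAA041586, gave nearly the same value (-0.31, standard error 0.06, adjusted p = 0.0277). Both probes no longer passed when replicate 2 (adjusted p = 0.106 and 0.168) or replicate 4 (0.140 and 0.136) was left out.

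**Figure D4:**
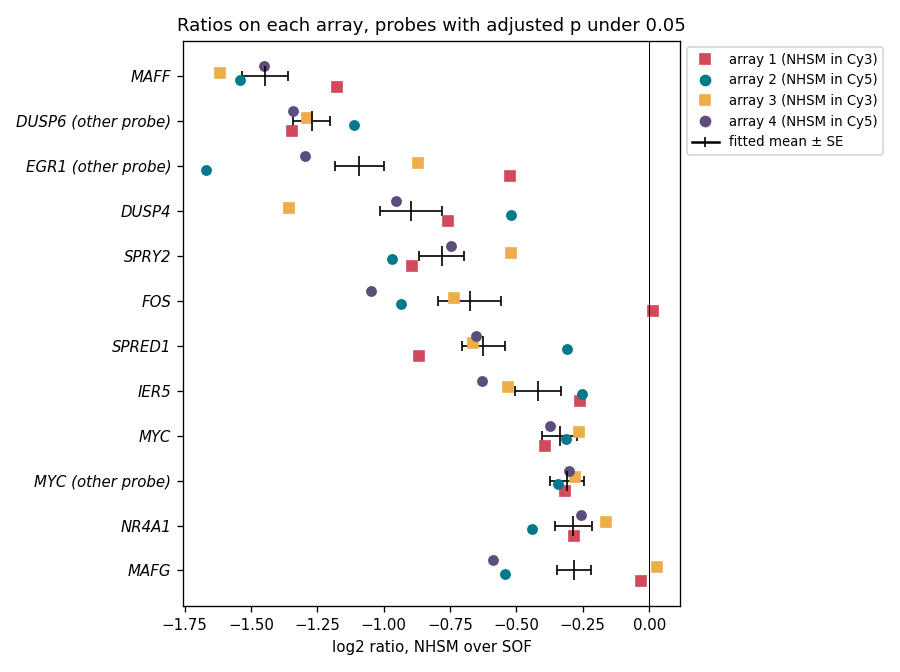
Log2 ratio of NHSM over SOF on each array for the 12 probes that passed, with squares for arrays that had NHSM in Cy3, circles for those with NHSM in Cy5, and black bars for the fitted mean and its standard error. Ratios of *MAFF* and of the *DUSP6* probe are alike on all 4 arrays, *FOS* is near 0 on array 1, and *MAFG* is near 0 on both arrays with NHSM in Cy3.

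The transcription factors that link ERK to its targets did not pass. *ETV1* and *ETV4*, ETS factors of the PEA3 type that FGF signalling induces in many embryonic tissues, had log2 fold changes of -0.16 (interval -0.33 to 0.01) and -0.10 (-0.25 to 0.05). *ETV1* was above the floor in only 3 NHSM and 2 SOF pools, and all its NHSM pools lay below all SOF pools. *ETV3*, an ETS repressor, had -0.65 with a standard error of 0.36 (adjusted p = 0.436). Its ratios were -0.02, 0.22, -2.76 and -0.04, so that array 3 alone set this value. *CIC*, a repressor that ERK inactivates, had -0.15 (interval -0.31 to 0.01). Of the 3 ternary complex factors *ELK1*, *ELK3* and *ELK4*, which act with SRF on the promoters of immediate early genes, 0 were above the floor in all pools of a medium. The same held for *PHLDA1*, *EPHA2* and *VGF*, known ERK targets in other cells. No statement on these 6 genes is possible at this signal.

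Of the 11 members with a probe that was lower in NHSM, 10 had several probes, and only in *MYC* did all of them pass. Among all named genes with several probes and at least 1 lower probe, all probes were lower in 37 of 775 (4.77%). The 10 members had 17 probes that did not pass. Of these, 5 were at the floor in all pools, where a difference could not be measured, but 6 were above it in all 4 pools of a medium. These 6 belonged to *DUSP6* (2 probes), *EGR1*, *IER5*, *NR4A1* and *SPRED1*. With the probes of a gene averaged, the log2 fold change was -0.50 for *MAFF*, -0.44 for *SPRY2* and -0.42 for *DUSP4*, which still passed, and -0.27 for *IER5* and -0.09 for *NR4A1*, which did not (adjusted p = 0.0900 and 0.394). *DUSP6* and *EGR1* also passed as lower in this setting. Probe positions were not used here, so whether such probes read different transcripts or other genes was not tested.

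The rest of the pathway was measured for comparison. Of 41 listed genes of the RAS to ERK cascade, such as the RAS, RAF, MEK and ERK genes, their adaptors and the RSK and MSK kinases downstream of ERK, 35 were measured. Of these 1 was lower (2.86%), 2 were higher (5.71%) and 32 did not pass, and their median log2 fold change was -0.04. The lower gene was *RPS6KA5* (MSK1, -0.52), and the higher ones were *RPS6KA1* (RSK1, 0.31) and *RPS6KA3* (RSK2, 0.37). A list of further genes known to respond to ERK in other cells held 36 symbols, with *CYR61* and *CTGF* listed also as *CCN1* and *CCN2*. By these symbols 29 genes were measured. Of them 3 were lower (10.3%), 4 were higher (13.8%) and 22 did not pass, with a median of -0.04. The shares of all named genes were 5.94% lower and 5.95% higher. Only *PLAU*, the protease urokinase, and *ZFP36L1*, which speeds the decay of mRNAs, were lower by at least 1.5-fold (log2 fold changes -1.56 and -0.59, adjusted p = 3.53e-04 and 0.00442). These were 6.90% of the 29 genes, close to the 9.09% of the 55 genes, against 1.35% of all named genes. The lists were chosen with earlier results of these data known, and differences between them were not tested.

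**Figure D5:**
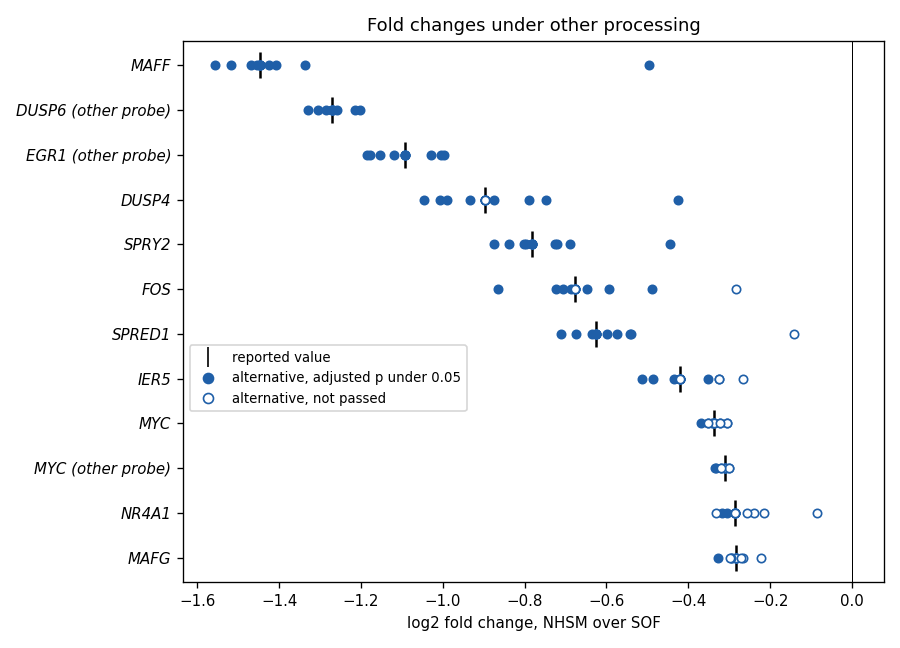
Log2 fold change of NHSM over SOF for the 12 probes that passed, as reported (black bars) and under each other way of processing (circles, filled where the adjusted p was under 0.05). All values are negative, and *MAFF*, *SPRY2* and the probes of *DUSP6* and *EGR1* have filled circles only.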

How the data were processed

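The authors amplified and labelled RNA of each pool, hybridised it to Agilent bovine V2 arrays and quantified spots with ImaGene. The deposited scanner files give raw linear spot intensities (the mean of each spot). The table deposited by the authors holds log2 ratios after loess and a dye correction per gene, with scale checked by a slope of 0.999 on the fit over 136 probes. It was used as an alternative only.

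Here mean intensities were turned into log2 ratios and loess-normalized array by array with no background correction, 1,567 control spots at weight 0, and fitted in limma 3.58.1 (R 4.3.3) with a dye term, on 2 residual and 5.33 prior degrees of freedom. Pool levels were scaled between arrays with Aquantile, without removal of the dye effect. The step was tested on simulated data. Genes were named from the array's annotation table, and current symbols and chromosomes came from RefSeq (ARS-UCD2.0). The study calls the pools independent biological replicates, and the ICMs not entirely pure. Precision is limited by the 4 arrays.

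Members, role groups and gene lists were chosen with earlier results of these data known. Genes that passed were named with their values, together with the Sprouty, Spred, phosphatase, AP-1, EGR, NR4A and PEA3 genes, and further probes were named where they disagreed with the brightest. Alternatives changed the background correction (normexp, offset 50), normalization, dye term, pairing of channels, variance trend, source of ratios, dim probes, adjustment, probe choice and replicates.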

Additional observations from a re-analysis of the deposited data

Results flagged for a closer look

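Of 58 sets of 4 array ratios that were checked for a value far from the others, 1 stood out, and chance alone gives about 1 in 20. In *ETV3* the gap of array 3 (-2.76) to the nearest other array made up 0.914 of the whole range. The probe was above the floor in 2 NHSM pools and 1 SOF pool. The other *ETV3* probe had a log2 fold change of 0.07.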

How the results depend on the processing

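No log2 fold change of the 12 probes that passed changed its direction under any alternative run. Against 9 lower members, there were 5 with median centring, 5 without the dye term, 3 with the channels as separate samples and no replicate block, and 5 to 9 when 1 replicate was left out (5 without replicate 4 and 6 without replicate 2). Without replicate 1 the count stayed at 9, but 7 of the 9 genes were kept (*MAFG* and *NR4A1* were not) and *ETV3* and *SPRED2* were added. The authors' ratios gave 10, with *NR4A2* added. Against 0 higher members, there was 1 with median centring (*JUNB*), 3 with the authors' ratios (*DUSP5*, *DUSP12* and *DUSP26*), 2 with dim probes removed, 1 with the adjustment over 1 probe per gene (*DUSP12*), and 0 to 2 when 1 replicate was left out (2 without replicate 3, *DUSP26* and *JUNB*). Against 5 members lower by at least 1.5-fold, there were 3 with separate channels, 0 when the probes of a gene were averaged, and 4 to 5 when 1 replicate was left out. Averaging the probes gave 144 called genes over the array, 50 of them lower in NHSM, against 324 called genes by the brightest probe. Counts of called probes stayed within 1.5 times of 764 and had no value under the adjustment or averaging per gene. The separate channels are the fit without the pairing of the pools on an array, and the ratio within an array is the paired one. Counting by any probe was chosen after seeing the data. *MAFG* passed under 4 and *NR4A1* under 5 of 13 alternatives, *IER5* under 8 and *MYC* under 9, *FOS* under 10, *DUSP4* and *SPRED1* under 12. Signal over the floor limited 22 of the 55 genes, which were not above it in all pools of either medium.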
